A study of Mus musculus with 6 samples.

Results

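The 10 genes described here carry the visual cycle, the enzyme pathway that returns light-exposed chromophore to its active form, and the handling of retinoids around it. They are Rpe65, Lrat, Rdh5, Rgr, Rlbp1, Rdh10, Rdh8, Rdh11, Rdh12 and Rbp3, and were taken by symbol from the deposited count table. All 10 were found among 25124 gene models, and all 10 were among the 14685 genes with enough counts to be tested. The libraries are poly-A RNA from whole retina of C57BL/6J mice aged 4 months, 3 libraries of the wild type genotype and 3 of the Elovl2(C234W) genotype. Elovl2 is an elongase of long polyunsaturated fatty acids, and C234W is a substitution in its protein; the labels name no treatment and do not give zygosity. The comparison asks how retinal transcript levels differ between these genotypes. The count columns are named WT1A, WT2A and WT2B, and FS3A, FS3B and FS5A. The prefix FS is not explained in the labels and was assigned to C234W by elimination, so the direction of each difference below rests on that assignment.

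In the visual cycle a photon converts the cis form of retinal, bound to opsin, to the all-trans form. Photoreceptors reduce that product to retinol, which travels to the retinal pigment epithelium, the cell layer behind the photoreceptors, where it is esterified, isomerised back to the cis form, oxidised and returned. Müller glia, the radial glia of the retina, hold part of the binding and opsin machinery as well. The pigment epithelium is not part of the neural retina, so its genes measure how much of that layer a dissected retina carries along with how strongly the layer expresses them. In bulk tissue, fewer cells of a type and less RNA per cell cannot be told apart.

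Library totals in genes ran from 14184093 to 19298613 estimated counts. Nothing in the labels says that libraries came from separate animals, and 2 pairs have a common number in their names (WT2A with WT2B and FS3A with FS3B). The p-values therefore reflect the spread among these libraries, which may be technical. WT1A stood apart from the other wild-type libraries: on log2 CPM (counts per 1000000 counts of a library, scaled by TMM) across tested genes, its Pearson r was 0.9676 with WT2A and 0.9645 with WT2B, against 0.9691 to 0.9766 with the C234W libraries, while WT2A and WT2B reached 0.9902 with each other. Each of the 10 genes is therefore given with and without it, as are the edgeR calls in the lists beside them. Leaving out WT1A makes WT2A and WT2B the whole wild-type group, the closest pair and one with a common name number. The spread within that group may be technical, so calls without WT1A carry this limit. Elovl2 itself was measured at 141.9, 138.3 and 135.9 CPM in WT1A, WT2A and WT2B and at 81.95, 90.11 and 116.3 CPM in FS3A, FS3B and FS5A. Its log2 fold change of -0.53 (SE 0.165) did not pass (adjusted p = 0.101 in edgeR), and a substitution in the protein need not alter the transcript level.

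None of the 10 genes passed the test between genotypes. By edgeR's quasi-likelihood test with Benjamini-Hochberg adjustment over all tested genes and a threshold of 0.05, 0 of 10 were called, against 1.46% of all genes tested. At an unadjusted p under 0.05, 2 of 10 were lower in C234W (Rlbp1 and Rdh5) and 0 were higher, against 13.5% and 11.9% of all genes. DESeq2 called the same 2 genes lower, against 7.69% of the genes to which it gave an adjusted p. The median log2 fold change of the 10 genes was -0.65, with 8 of 10 below 0, against a median of 0.02 over all tested genes. That median depended on 1 library. Without WT1A it was 0.14, and edgeR then called 3 of the 10: Rlbp1 lower, against 9.39% of all genes, and Rdh8 and Rdh11 higher, against 9.13%.

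**Figure D1:**
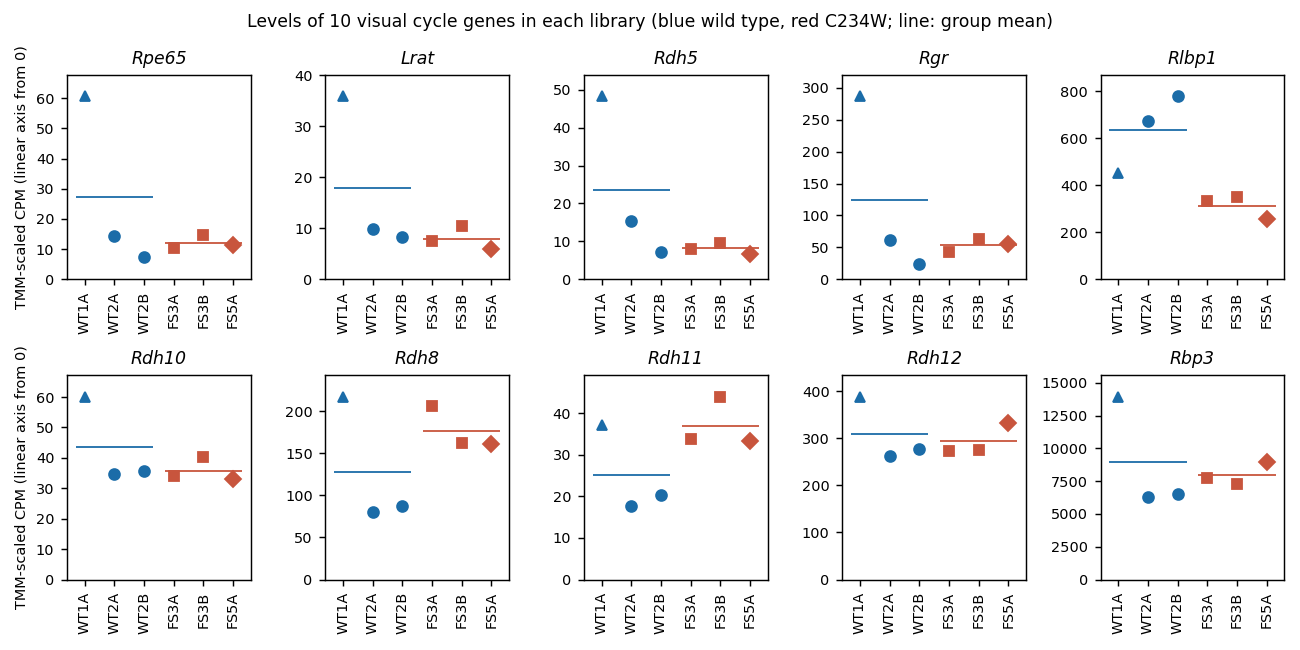
TMM-scaled CPM of each gene in the 6 libraries, on linear axes that start at 0, with wild type in blue, C234W in red and group means as lines. WT1A is the highest library for Rpe65, Lrat, Rdh5, Rgr, Rdh10, Rdh8, Rdh12 and Rbp3, while Rlbp1 is the 1 gene whose 3 C234W libraries all lie below all wild-type libraries.

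Compared per length, the 10 genes spanned a wide range of levels. Rbp3, which encodes the interphotoreceptor retinoid-binding protein secreted by photoreceptors, stood first at 1690 ± 819 CPM per kilobase of transcript in wild type and 1512 ± 163 in C234W (SD, n = 3 each). Rlbp1 and Rdh12 followed, at 272.3 ± 71.2 and 185.2 ± 41.2 CPM per kilobase in wild type. Their order was reversed in C234W, where Rdh12 had 175.6 ± 20.1 and Rlbp1 134.1 ± 21.6 CPM per kilobase, but in WT1A, too, Rdh12 (232.6) exceeded Rlbp1 (194.2). Rdh8 was next in C234W at 52.78 ± 7.71 CPM per kilobase. Rdh10, Rdh11, Rgr, Rpe65 and Rdh5 lay between 6.46 and 15.65 CPM per kilobase in C234W, where Rgr and Rdh11 (12.63 ± 2.42 and 12.69 ± 2.06) and Rpe65 and Rdh5 (6.601 ± 1.22 and 6.46 ± 1.16) did not differ beyond their spread. Lrat was the lowest at 1.489 ± 0.444 CPM per kilobase. In wild type the SD of Rpe65, Rdh5 and Rgr was about as large as the mean, so their group means could not be ordered there. Within WT1A, WT2A and WT2B, Rdh5 (38.33, 12.15 and 5.614 CPM per kilobase) exceeded Rpe65 (33.17, 7.841 and 3.989). Rgr (66.96, 14.38 and 5.448) exceeded Rpe65 in each, but lay below Rdh5 in WT2B.

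The pigment epithelium steps are carried by Lrat, which esterifies retinol, Rpe65, the isomerase that makes cis-retinol from retinyl esters, Rdh5, which oxidises cis-retinol to cis-retinal, and Rgr, an opsin of pigment epithelium and Müller glia that binds all-trans-retinal. These 4 genes varied together over the 6 libraries, with WT1A far the highest for each. For them, the 250 bases before and the first 10 bases after each annotated start are shown. Rlbp1 is beside them as the gene with the smallest p between genotypes. The sequences are from RefSeq on GRCm38.p6, the assembly of mm10, 5′ to 3′ on the gene's strand, and 9 of the 10 genes had an entry; Rdh10 had none. Capitals mark matches on either strand to TAATCC, a core motif of OTX and CRX homeodomain factors, and to CATGTG or CACGTG, E-box motifs of the kind bound by MITF.
Rpe65, chr3:159598931-159599190, plus strand: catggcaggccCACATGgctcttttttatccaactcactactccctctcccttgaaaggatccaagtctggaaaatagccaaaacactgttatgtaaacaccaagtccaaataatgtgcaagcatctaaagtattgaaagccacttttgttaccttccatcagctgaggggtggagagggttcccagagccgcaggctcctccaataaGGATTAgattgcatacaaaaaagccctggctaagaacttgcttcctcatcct
Lrat, chr3:82903965-82904224, minus strand: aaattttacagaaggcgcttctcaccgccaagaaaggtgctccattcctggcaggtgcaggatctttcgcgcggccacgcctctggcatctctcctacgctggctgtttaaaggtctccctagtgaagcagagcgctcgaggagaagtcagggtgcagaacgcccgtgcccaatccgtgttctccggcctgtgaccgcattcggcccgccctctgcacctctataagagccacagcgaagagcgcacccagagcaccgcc
Rdh5, chr10:128919288-128919547, minus strand: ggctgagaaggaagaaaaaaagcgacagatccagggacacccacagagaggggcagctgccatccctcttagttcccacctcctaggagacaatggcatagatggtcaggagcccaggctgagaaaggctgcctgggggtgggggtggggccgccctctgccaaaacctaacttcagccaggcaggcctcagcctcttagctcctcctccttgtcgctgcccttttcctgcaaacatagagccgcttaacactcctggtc
Rgr, chr14:37049005-37049264, minus strand: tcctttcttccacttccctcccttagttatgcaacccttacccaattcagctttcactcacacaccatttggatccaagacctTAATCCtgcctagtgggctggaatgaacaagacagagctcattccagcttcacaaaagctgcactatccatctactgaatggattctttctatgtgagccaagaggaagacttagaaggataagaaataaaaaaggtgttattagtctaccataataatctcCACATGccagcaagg
Rlbp1, chr7:79387018-79387277, minus strand: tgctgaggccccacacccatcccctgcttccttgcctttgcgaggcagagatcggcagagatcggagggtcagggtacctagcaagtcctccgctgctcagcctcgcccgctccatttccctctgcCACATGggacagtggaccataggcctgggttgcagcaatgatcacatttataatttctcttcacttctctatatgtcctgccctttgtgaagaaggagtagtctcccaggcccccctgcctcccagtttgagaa

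Rpe65 held TAATCC on the opposite strand from position -42 and CATGTG on the opposite strand from position -239, counted from the start. Rgr held TAATCC on its own strand from -167 and CATGTG on the opposite strand from -5. Rlbp1 held CATGTG on the opposite strand from -124, and the windows of Lrat and Rdh5 held none of the 3 motifs. The motifs were not particular to the genes shown. Of those scanned but not shown, Rbp3 held TAATCC from -69 and CATGTG from -213 and -88, and an Rdh11 entry held CACGTG from -230 and -182. Over 32851 windows of the same length, 6.44% held TAATCC, 12.7% CATGTG and 6.34% CACGTG. The motifs were chosen with the values known, no matches overlapped in these windows, and a match is a description of sequence only.

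Rpe65 (chromosome 3, 159599181 to 159625307, mm10) was measured at 60.57 CPM in WT1A, 14.32 in WT2A and 7.283 in WT2B, and at 10.18, 14.51 and 11.46 CPM in FS3A, FS3B and FS5A. The 3 C234W libraries lay between the values of WT2A and WT2B or just above them, and WT1A alone was far higher. The log2 fold change was -1.18 (SE 0.693; edgeR adjusted p = 0.318) over 6 libraries and 0.16 (SE 0.32; edgeR adjusted p = 0.758) without WT1A.

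Rgr (chromosome 14, 37034909 to 37049014) had the widest range of the 10 genes, 12.29-fold from its lowest to its highest library. It was at 286.7 CPM in WT1A, 61.58 in WT2A and 23.32 in WT2B, and at 42.92, 63.46 and 55.79 CPM in FS3A, FS3B and FS5A. As with Rpe65, WT2A and WT2B bracketed most of the C234W values, and WT2A was 2.64-fold above WT2B. The log2 fold change went from -1.20 (SE 0.781) to 0.35 when WT1A was left out, and neither value passed (edgeR adjusted p = 0.369 and 0.542).

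Lrat (chromosome 3, 82892582 to 82903974) was at 35.86, 9.796 and 8.24 CPM in WT1A, WT2A and WT2B and at 7.5, 10.53 and 5.853 CPM in FS3A, FS3B and FS5A. Its gene model overlaps that of Rbm46os on the other strand, and the counting used strand. Rdh5 (chromosome 10, 128913591 to 128919297) was at 48.22, 15.29 and 7.062 CPM in wild type and at 7.938, 9.675 and 6.768 CPM in C234W, in the same library order. For both genes the groups overlapped and WT1A was the highest library, by 3.98-fold over the mean of WT2A and WT2B for Lrat and by 4.31-fold for Rdh5. Neither passed in edgeR: the log2 fold change was -1.17 (SE 0.534) for Lrat and -1.53 (SE 0.602) for Rdh5, at adjusted p = 0.207 and 0.167. DESeq2 called Rdh5 (adjusted p = 0.0329). Without WT1A the log2 fold changes shrank to -0.17 and -0.46 (edgeR adjusted p = 0.709 and 0.376).

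Markers of the pigment epithelium moved with these 4 genes across libraries only in part. The summed level of 7 defining markers other than the 10 genes (Best1, Tyr, Tyrp1, Dct, Pmel, Ttr and Slc16a8) was 416.2, 99.58 and 41.57 CPM in WT1A, WT2A and WT2B and 52.83, 89.69 and 106.3 CPM in FS3A, FS3B and FS5A, and none of the 7 was at 0 in all libraries. WT1A was the highest library for 4 of the 7, and for 9 of 17 markers of the wider list, whose summed level ran from 373.2 to 955.5 CPM in wild type and from 459.3 to 510.6 CPM in C234W. The wider sum rests much on Otx2, at 213.7, 168.8 and 169.2 CPM in WT1A, WT2A and WT2B. In FS3A, FS3B and FS5A, Otx2 was at 197.3, 183.8 and 217.2 CPM. Ttr, the transthyretin that carries retinol-binding protein, was the largest single part of the defining sum in each library, at 326.7 CPM in WT1A and 31.19 to 81.87 CPM elsewhere. The melanin genes did not follow the same order: Dct, dopachrome tautomerase, was as high in FS5A (32.31 CPM) as in WT1A (30.02 CPM), while Rpe65 was at 11.46 and 60.57 CPM in those libraries. Best1, a chloride channel, was low throughout, at up to 0.399 CPM in wild type and 1.043 CPM in C234W. Of the 17 markers, 1 fell, Ermn (edgeR adjusted p = 0.0493), and 0 rose. That call is on the edge of the threshold: Ermn had edgeR adjusted p = 0.0503 with RLE scaling, 0.0508 with upper-quartile scaling, 0.0549 with total counts, 0.114 after a trend of level on transcript length was removed from each library and 0.379 with libraries of 1 name number summed. Without WT1A, the median log2 fold change of the 7 defining markers went from -0.09 to 1.32, with 0 called in edgeR. Of the 17, Slc6a20a was then called higher and Ermn lower, against 9.13% and 9.39% of all tested genes.

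**Figure D2:**
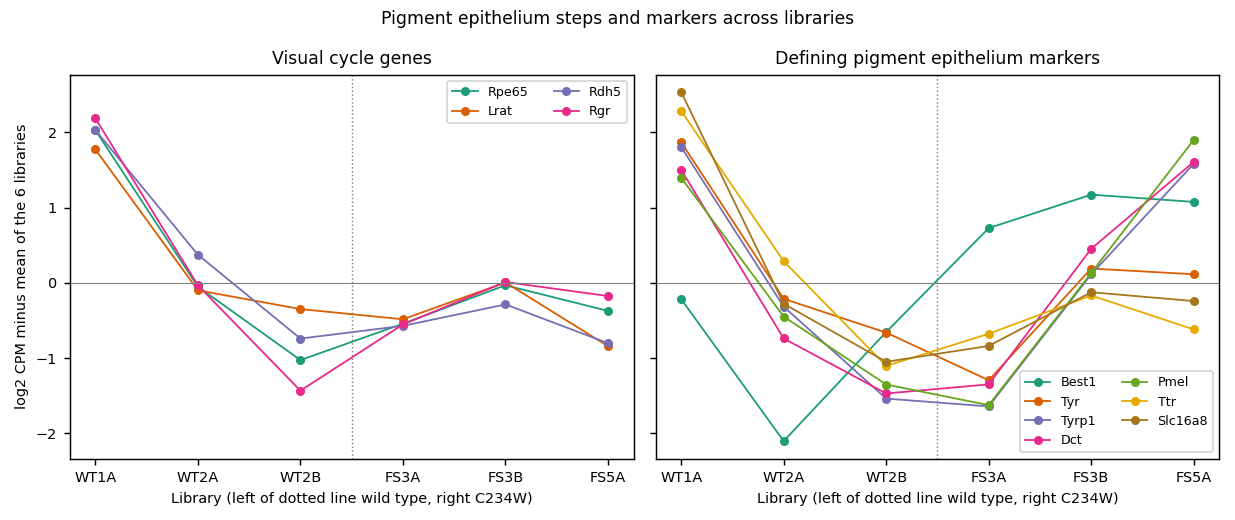
Deviation of log2 CPM from the mean of the 6 libraries, for 4 visual cycle genes (left) and 7 pigment epithelium markers (right), with libraries on the horizontal axis. All 4 genes peak in WT1A, as do Ttr, Slc16a8, Tyr and Tyrp1, whereas Dct and Pmel reach their highest value in FS5A and Best1 in FS3B.

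Taken as a percentage of the defining marker sum, a measure chosen after the values were seen, the 4 genes did not separate the genotypes. Rpe65 amounted to 14.6, 14.4 and 17.5% of the sum in WT1A, WT2A and WT2B and to 19.3, 16.2 and 10.8% in FS3A, FS3B and FS5A. The group means were 15.5 ± 1.77% and 15.4 ± 4.3% (SD, n = 3; exact two-sided permutation p = 1). WT1A did not stand out on this measure. The sum rests much on Ttr, which made up 326.7 of 416.2 CPM in WT1A and 43.65 of 106.3 CPM in FS5A. Ttr was also among the genes most like Rpe65 in pattern (r = 0.9875). A percentage of the sum without Ttr was not computed, and the other markers did not all go with Rpe65. Slc16a8, Tyr and Tyrp1 were highest in WT1A, as Rpe65 was, but Dct and Pmel were highest in FS5A and Best1 in FS3B. Rgr was at 62.3 ± 6.4% and 68.2 ± 14.6%, Lrat at 12.8 ± 6.15% and 10.5 ± 4.48%, and Rdh5 at 14.6 ± 2.77% and 10.7 ± 4.33% (SD, n = 3; exact permutation p = 0.6, 0.7 and 0.2). With 3 libraries against 3, the smallest p such a test allows is 0.1, and adjusted over the 8 such ratios computed, the smallest was 0.2.

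Across the 6 libraries, Rpe65 correlated with Rgr at Pearson r = 0.988, with Rdh5 at 0.959 and with Lrat at 0.94 on the log2 scale, a description in which WT1A is the farthest point throughout. Among 11137 genes of at least 5 CPM on average, those whose pattern was most like that of Rpe65 were Slc16a8, a lactate transporter of the pigment epithelium (r = 0.9892), Sema3b (0.9875), Ttr (0.9875), Dnajc2 (0.9833) and Mrps31 (0.982). Slc16a8 and Ttr are on the marker list fixed for the pigment epithelium. The range of the others was narrow: Mrps31 went from 13.76 to 17.93 CPM, against 7.283 to 60.57 CPM for Rpe65.

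Rlbp1 encodes the cellular retinaldehyde-binding protein, which holds cis-retinoids in Müller glia and pigment epithelium. It lies on chromosome 7, 79374870 to 79387027. Its level was 452.2, 673.1 and 777 CPM in WT1A, WT2A and WT2B, and 334.6, 347.7 and 254.6 CPM in FS3A, FS3B and FS5A. The C234W libraries were all below the wild-type libraries, as they were for 16.4% of tested genes, and WT1A was the wild-type library nearest to them. The group means were 634.1 ± 165.9 and 312.3 ± 50.4 CPM (SD, n = 3). The log2 fold change was -1.02 (SE 0.229), which in edgeR missed the threshold narrowly (adjusted p = 0.0571). It passed with no filter on low counts (edgeR adjusted p = 0.0442), in DESeq2 (adjusted p = 0.0014) and without WT1A (log2 fold change -1.21, edgeR adjusted p = 0.0124). It passed in no other alternative run. In edgeR its adjusted p was 0.218 without WT2A, 0.245 without WT2B, 0.189 without FS3A, 0.0887 without FS3B and 0.12 without FS5A, and 0.379 with libraries of 1 name number summed. It was also farther from the threshold after removal of a trend on transcript length from each library (log2 fold change -0.97, edgeR adjusted p = 0.126).

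Müller glia markers lay lower in C234W in part. The log2 fold change was below 0 for 9 of 14 markers, as it was for 7052 of 14685 tested genes. Aqp4 (mean 75.88 CPM in wild type and 114 CPM in C234W) and Crym (64.62 and 100.3 CPM) were among those that went up. Neither passed (edgeR adjusted p = 0.264 and 0.313). The sum of 14 markers other than Rlbp1 was 5910, 6434 and 7771 CPM in WT1A, WT2A and WT2B and 5240, 6055 and 4670 CPM in FS3A, FS3B and FS5A, and none of the 14 was at 0 in all libraries. Of the 14, 1 fell, Spc25 (from 184.5 ± 12.8 to 112.3 ± 8 CPM, SD, n = 3; edgeR adjusted p = 0.0497), 0 rose, and 6 had C234W libraries all below the wild-type libraries, against 16.4% of all tested genes. Spc25 too lay on the edge, with edgeR adjusted p = 0.0516 with RLE scaling, 0.0537 with upper-quartile scaling, 0.0712 with total counts, 0.126 after removal of the length trend and 0.381 with libraries of 1 name number summed. Without WT1A edgeR called Spc25 and Car2 lower and Sox9 higher, against 9.39% and 9.13% of all tested genes. Glul, the glutamine synthetase of Müller glia, was at 2995 ± 349 and 2234 ± 112 CPM (SD, n = 3) and did not pass (edgeR adjusted p = 0.181). It was the largest single part of the marker sum in each library. Relative to the marker sum, Rlbp1 stood at 7.65, 10.5 and 10% in WT1A, WT2A and WT2B and at 6.39, 5.74 and 5.45% in FS3A, FS3B and FS5A. The groups still did not overlap on this measure, with exact permutation p = 0.1, the smallest that 3 against 3 allows, and 3.85% of all tested genes lay below in the same way.

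Rlbp1 did not follow the pigment epithelium genes. Its r with Rpe65 over the 6 libraries was -0.08, and the log2 ratio of Rpe65 to Rlbp1 spread from -6.74 in WT2B to -2.90 in WT1A, with the C234W libraries between them (-5.04, -4.58 and -4.47). Nor did it follow Rdh11 and Rdh8, with r of -0.80 and -0.77. The 5 genes most like Rlbp1 in pattern were Rpl31, a ribosomal protein gene (r = 0.9972), Ostf1 (0.9957), Jun, an AP-1 transcription factor gene (0.9955), March5 (0.9952) and Snu13 (0.9949). Jun was at 72.92, 113.3 and 119 CPM in wild type and at 57.87, 56.39 and 45.36 CPM in C234W, the same order of libraries as Rlbp1 but for FS3A and FS3B.

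Rdh10, a retinol dehydrogenase expressed in pigment epithelium and Müller glia, lies on chromosome 1, 16105882 to 16132550. It was at 60.11, 34.66 and 35.61 CPM in WT1A, WT2A and WT2B and at 34.16, 40.31 and 32.92 CPM in FS3A, FS3B and FS5A. Apart from WT1A the libraries lay within 32.92 to 40.31 CPM, and the groups overlapped. The log2 fold change was -0.28 (SE 0.234; edgeR adjusted p = 0.479), and 0.03 (edgeR adjusted p = 0.901) without WT1A.

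The photoreceptor reductases that turn all-trans-retinal into retinol showed another pattern. Rdh8, the outer segment enzyme (chromosome 9, 20818494 to 20828057), was at 80.52 CPM in WT2A and 87.54 in WT2B, but at 217.4 CPM in WT1A. The C234W libraries FS3A, FS3B and FS5A had 206.4, 162.4 and 161 CPM. They were thus above WT2A and WT2B and below WT1A, and over 6 libraries the log2 fold change of 0.46 (SE 0.353) did not pass (edgeR adjusted p = 0.437). Without WT1A, with WT2A and WT2B as the only wild-type libraries, the gene rose by 1.08 on the log2 scale (edgeR adjusted p = 0.0124). With libraries of 1 name number summed, its log2 fold change was 0.185 (edgeR adjusted p = 0.872).

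Rdh11, a retinal reductase found in photoreceptors and other cells (chromosome 12, 79174233 to 79191855), had a like pattern. It was at 37.06 CPM in WT1A, 17.76 in WT2A and 20.3 in WT2B, and at 33.72, 43.97 and 33.41 CPM in FS3A, FS3B and FS5A. WT1A lay within the range of C234W. The log2 fold change was 0.57 (SE 0.281, edgeR adjusted p = 0.239), and 0.97 (edgeR adjusted p = 0.0177) without WT1A. With libraries of 1 name number summed it was 0.375 (edgeR adjusted p = 0.658). Rdh8 and Rdh11 correlated at r = 0.895 over the 6 libraries.

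Rdh12, the inner segment reductase, is the neighbour of Rdh11 on chromosome 12 (79208913 to 79222664) and is read from the opposite strand. It had the narrowest range of the 10 genes, 1.48-fold, at 388.1, 262.7 and 276.5 CPM in WT1A, WT2A and WT2B and 273, 274.7 and 331.8 CPM in FS3A, FS3B and FS5A. Its log2 fold change was -0.08 (SE 0.191, edgeR adjusted p = 0.833). That value changed sign without WT1A (0.13, edgeR adjusted p = 0.587), with scaling to total counts (0.12) and after removal of the length trend (0.095). The neighbours correlated at r = 0.441 over the 6 libraries. The log2 ratio of Rdh11 to Rdh12 was -3.39 in WT1A, -3.89 in WT2A and -3.77 in WT2B, and the C234W libraries all had higher ratios, at -3.02, -2.64 and -3.31. FS5A lay close to WT1A. What share of gene pairs separate in this way was not computed, so the separation is a description only. The corresponding ratio of Rdh8 to Rdh12, chosen after the values were seen, overlapped between groups, at -0.84, -1.71 and -1.66 against -0.40, -0.76 and -1.04.

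Rbp3 (chromosome 14, 33954003 to 33964219) was at 13940 CPM in WT1A, 6324 in WT2A and 6560 in WT2B, and at 7718, 7314 and 8966 CPM in FS3A, FS3B and FS5A. The C234W libraries lay above WT2A and WT2B and below WT1A. The log2 fold change was -0.16 (SE 0.32; edgeR adjusted p = 0.787) over 6 libraries, 0.32 (edgeR adjusted p = 0.226) without WT1A and 0.05 with scaling to total counts. Its pattern was closest to that of Rdh12 among the 10 genes (r = 0.96).

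**Figure D3:**
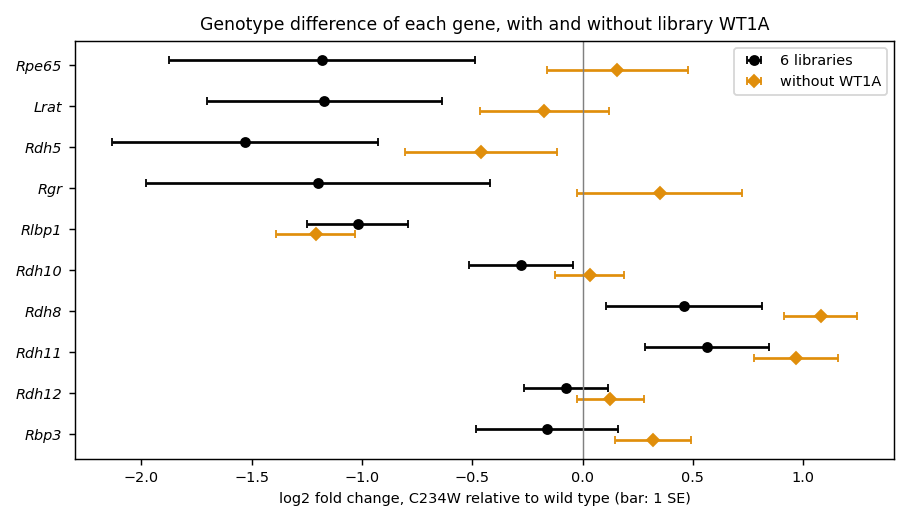
Log2 fold change of each gene in C234W relative to wild type, with 1 SE, over 6 libraries (black) and without WT1A (orange). The values of Rpe65, Rgr, Rdh10, Rdh12 and Rbp3 change sign, those of Rdh8 and Rdh11 move up, and Rlbp1 stays between -1.21 and -1.02.

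Rod markers differed between libraries beside these photoreceptor genes. The sum of 14 rod markers was 178600, 113100 and 120500 CPM in WT1A, WT2A and WT2B and 80610, 76650 and 101300 CPM in FS3A, FS3B and FS5A, with none at 0; WT1A was the highest library for 12 of 14. Of the 14, 0 passed in edgeR, 6 were lower at an unadjusted p under 0.05, against 13.5% of all tested genes, and DESeq2 called 6 lower, against 7.69%. Without WT1A edgeR called 4 of the 14 lower (Gnb1, Pde6g, Sag and Rcvrn), against 9.39% of genes. The summed level of 10 cone markers was 1527 to 1710 CPM in wild type and 1392 to 1738 CPM in C234W, but the members did not all go one way. Of the 10, 1 fell in edgeR (Pde6h, adjusted p = 0.0484, and 0.0503 with RLE scaling). DESeq2 called 3 lower, against 7.69% of genes, and 0 higher. Without WT1A edgeR called Pde6h, Arr3 and Gngt2 lower and Gnat2 and Cnga3 higher, against 9.39% and 9.13% of all tested genes. Relative to the rod sum, Rdh12 stood at 0.217, 0.232 and 0.23% in WT1A, WT2A and WT2B and at 0.339, 0.358 and 0.328% in FS3A, FS3B and FS5A. Rdh8 was at 0.122, 0.0712 and 0.0727% against 0.256, 0.212 and 0.159%, and Rbp3 at 7.81, 5.59 and 5.45% against 9.57, 9.54 and 8.85%. The C234W libraries were above all wild-type libraries for each of these 3 genes (exact permutation p = 0.1 each, the smallest possible), but so were 48.1% of all tested genes on this measure. What part the rod markers have in the levels of these 3 genes was not tested.

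**Figure D4:**
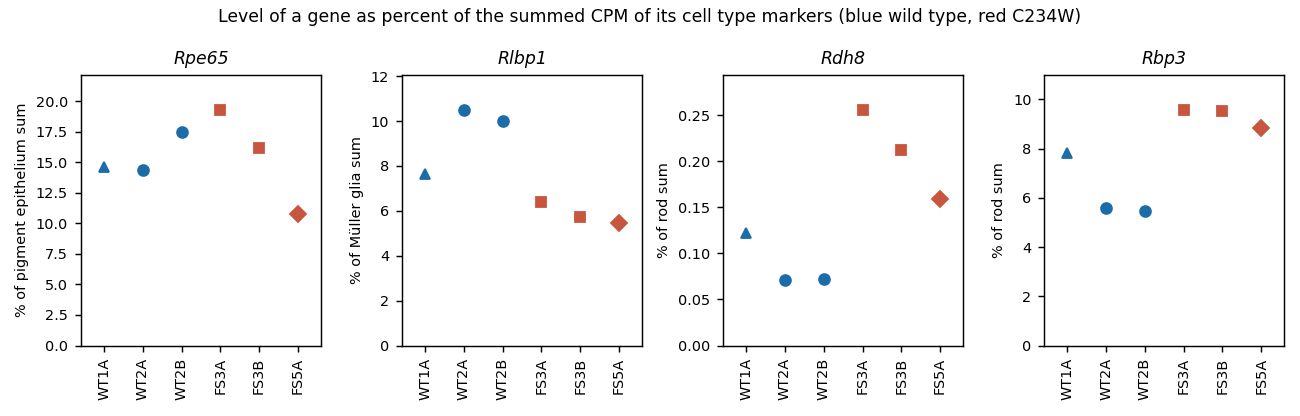
Level of Rpe65, Rlbp1, Rdh8 and Rbp3 in each library as a percentage of the summed CPM of pigment epithelium, Müller glia or rod markers, on axes from 0, with wild type in blue and C234W in red. Rpe65 overlaps between genotypes (10.8 to 19.3%), Rlbp1 is lower in C234W, and Rdh8 and Rbp3 are higher.

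Among the wider retinoid genes, in 7 lists of 56 genes by role, 0 passed in edgeR in either direction. Without WT1A, edgeR called 4 lower (Scarb1, Rdh14, Crabp1 and Fabp5) and 1 higher (Rarg), against 9.39% lower and 9.13% higher over all tested genes. Of 7 photopigment and chromophore clearance genes, 0 were called, and the median log2 fold change was -0.22. At an unadjusted p under 0.05, 2 were lower, against 13.5% of all tested genes. Without WT1A that median was 0.16, with 0 called. Abca4, the flippase that clears retinal from discs, had edgeR adjusted p = 0.796.

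Of 9 genes of retinol uptake and carriage, 7 were tested and 0 called, with a median log2 fold change of -0.59. At an unadjusted p under 0.05, 2 were lower, against 13.5% of all tested genes. Scarb1, a scavenger receptor that takes up carotenoids and lipoprotein lipid, had the smallest p, from 228.2 ± 8.65 to 151.9 ± 15.8 CPM (SD, n = 3; log2 fold change -0.59, SE 0.146; edgeR adjusted p = 0.0649). Its 3 C234W libraries lay below the 3 wild-type libraries, WT1A included (232.3, 218.2 and 233.9 CPM against 155.3, 134.6 and 165.7 CPM). Of all tested genes, 16.4% lay below in the same way. DESeq2 called Scarb1 lower (adjusted p = 0.00866).

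Of 15 other retinol and retinal dehydrogenases and reductases, 9 were tested and 0 called. At an unadjusted p under 0.05, 1 was higher and 2 were lower, against 11.9% and 13.5% of all tested genes. The smallest p was that of Rdh14, at 34.35 ± 7.18 and 22.33 ± 1.48 CPM (SD, n = 3; log2 fold change -0.62, SE 0.195; edgeR adjusted p = 0.103). Of 7 retinyl ester and alternative isomerase genes, 5 were tested, 0 called and 0 at an unadjusted p under 0.05; Awat2, an acyltransferase that can esterify retinol, had the smallest p (edgeR adjusted p = 0.28) at a level of up to 2.501 CPM. Bco2, a carotenoid cleavage enzyme and the 1 tested gene of 2 in that list, had edgeR adjusted p = 0.381.

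Of 10 genes of retinoic acid synthesis, binding and breakdown, 7 were tested and 0 called; all 7 log2 fold changes were below 0, as were 7052 of 14685 over all tested genes. Their median was -0.76, or -1.05 without WT1A and -0.47 after removal of the length trend. At an unadjusted p under 0.05, 2 were lower, against 13.5% of all genes. Crabp1, a cytosolic retinoic acid carrier, had the smallest p, at 10.49, 20.67 and 26.48 CPM in WT1A, WT2A and WT2B and 7.555, 10.62 and 7.255 CPM in FS3A, FS3B and FS5A. The groups overlapped by the value of FS3B, and its log2 fold change was -1.18 (SE 0.338; edgeR adjusted p = 0.086). Among 6 retinoic acid receptor genes 0 were called. At an unadjusted p under 0.05, 1 was higher and 1 lower, against 11.9% and 13.5% of all tested genes. Rarg, the gamma receptor, was at 4.915, 4.521 and 2.133 CPM in wild type and 11.17, 9.96 and 7.072 CPM in C234W, all 3 above wild type (log2 fold change 1.28, SE 0.35; edgeR adjusted p = 0.0779). Of 14685 tested genes, 1853 lay above in the same way.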

How the data were processed

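Whole-retina poly-A RNA was measured in 6 libraries. The values deposited by the authors are estimated counts per gene model, not normalized and in steps of 0.5, per the file headers. Per the series' design text, STAR (version 2.7.8a in the submitters' processing notes) aligned the reads to mm10. Per the file headers, HOMER then counted tags in exons on 1 strand, and the design text adds that only unique alignments and 1 isoform per locus were used. Reads shared with near-identical copies are thus lost, and lengths are those of the kept isoform, in the deposited length column. Header totals were 19426580 to 26672412 tags per library, and 65.8 to 74.4% of them fell in genes.

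Counts were rounded to whole numbers (28.3 to 32.1% of values per library were not whole). Genes were kept by filterByExpr, libraries scaled by TMM, and genotypes compared with the quasi-likelihood test of edgeR (4.0.16, R 4.3.3) with robust dispersion, genotype being the 1 term; Benjamini-Hochberg adjustment ran over 14685 genes. CPM are TMM-scaled. No pair of libraries was taken as duplicates: WT2A and WT2B were closest, with a chi-square of counts over genes of 9.97 per degree of freedom. The alternatives comprised scaling by RLE, upper quartile or total counts, other filters, DESeq2 (1.42.0), limma-voom (3.58.1), unrounded counts, no robust dispersion, removal of a loess trend of log2 CPM on transcript length (span 0.3), summing libraries of 1 name number, and leaving out each library.

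The text names all 10 genes, Elovl2, in each role list the genes past the threshold or else the 1 with the smallest p, and the 5 genes most correlated with Rpe65 and with Rlbp1; markers and Abca4 were named after their values were seen. Some genes this rule names are not reported here. Members, lists, rules and tests were chosen with earlier results of these data known. Percentages of marker sums and the ratio of Rdh8 to Rdh12 were added after seeing the data.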

Additional observations from a re-analysis of the deposited data

How the results depend on the processing

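The count of the 10 genes past the threshold was 0 in edgeR over 6 libraries, 1 with no filter on low counts (Rlbp1), 2 in DESeq2 (Rlbp1 and Rdh5) and 0 to 3 when 1 library was left out (3 without WT1A, 0 without each of the other libraries). The count over all genes was far less stable: 215 genes passed (27 higher and 188 lower), 353 with no filter and 1754 in DESeq2 (691 higher and 1063 lower), and 0 in edgeR with RLE, upper-quartile or total-count scaling (3753, 3805 and 4349 genes at an unadjusted p under 0.05), with the length trend removed (2842) or with libraries of 1 name number summed (1793). Leaving out 1 library gave 0 to 2775 genes; the 2775 (1368 higher and 1407 lower) were without WT1A, 4 passed without FS5A, and 0 without WT2A, WT2B, FS3A or FS3B (2358, 2183, 2369 and 3630 at an unadjusted p under 0.05). The fit without WT1A has only WT2A and WT2B as wild type, which have a common name number. The cause of these differences in count was not tested. Scaling to total counts moved the all-gene median log2 fold change from 0.02 to 0.21. Of 170 values of the 10 genes under alternatives, 8 changed sign: Rdh12 (0.12) and Rbp3 (0.048) with total counts, Rdh12 with the length trend removed (0.095), and 5 genes without WT1A. Leaving out 1 library at a time, Rpe65 ran from -1.63 (without WT2B) to 0.16 (without WT1A), Rgr from -1.68 (without WT2B) to 0.35, Rdh10 from -0.416 (without WT2A) to 0.0332, Rdh12 from -0.178 (without WT2A) to 0.13 and Rbp3 from -0.355 (without WT2A) to 0.32, each highest without WT1A. No paired analysis was possible because the count columns carry no replicate number of the labels.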
